A study of Mus musculus with 15 samples.

Results

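The windows described here are the 100-kb stretches of mouse autosomes with the fewest 5-hydroxymethylcytosine (5hmC) reads per CG in E14TG2a embryonic stem cells. Each autosome was divided into 100-kb windows, and 24006 windows held at least 200 CGs. For each window the reads of both 500-ng hmTOP-seq libraries were summed, divided by its number of CGs and then by the median window of the same chromosome. The 480 windows with the lowest values, 2% of the windows, were selected on these 500-ng reads. They held 311563 of 20381021 CGs (1.53%). The 500-ng values are therefore a description, with no test.

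The cells were grown with LIF and serum and carried no treatment. hmTOP-seq attaches an azide-bearing glucose to 5hmC with the enzyme BGT and starts sequencing from an oligonucleotide tethered to that sugar. It was carried out on 500, 50 and 5 ng of DNA, with 2 technical replicates each. The 2 control libraries at each input left out BGT, and uTOP-seq, which reads unmodified CGs (uCGs), was carried out on 300 ng in 3 replicates. The hmTOP-seq libraries held from 14884939 to 32502791 reads, the controls from 3409 to 10072 and the uTOP-seq libraries from 20120568 to 28412885. The replicates came from 1 cell line, so p-values measure the spread between libraries and not between cultures.

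As background, 5hmC is formed from 5-methylcytosine by TET enzymes and in embryonic stem cells is found mostly in gene bodies and at regulatory elements. Both assays keep a read only where it maps to the reference with good quality, which reads from near-identical copies often do not. Mouse chromosomes carry large clusters of such copies, many of them young gene families of smell, immunity and reproduction.

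Repeated sequence was measured on the reference alone. A CG was counted as unique when the 50 nt read outward from it in each direction occurred at no other CG of the reference, and otherwise as repeated. The sequences below show what repeated meant in the 5 longest runs of adjacent poorest windows. Each is the most frequent 50-nt sequence of its run among those with at most 3 further CGs, on the plus strand of GRCm38, with the CG it starts from in capitals.
chr7:20165276-20165325: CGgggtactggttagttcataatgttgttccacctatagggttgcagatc
chr14:3011186-3011235: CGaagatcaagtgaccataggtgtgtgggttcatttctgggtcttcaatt
chr7:7532765-7532814: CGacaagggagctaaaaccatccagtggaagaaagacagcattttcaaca
chr5:93555438-93555487: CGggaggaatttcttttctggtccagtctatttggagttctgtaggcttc
chr12:21880393-21880442: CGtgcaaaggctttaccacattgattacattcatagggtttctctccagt

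In their order, these sequences stood at 40, 23, 20, 20 and 14 plus-strand CGs of the run and at 10002, 9360, 8087, 7847 and 38 places of the reference, counting both directions. Summed over all 15 libraries, the copies within the run held 1, 0, 0, 0 and 1 reads. The first 4 thus stood mostly outside their run, whereas the chromosome 12 sequence had few copies elsewhere.

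Most of the poorest windows consisted of repeated sequence. The median share of CGs in repeated sequence was 92.3% in the poorest windows and 10.5% in all others. Of the 480 windows, 409 had at least 50% of CGs in repeated sequence, against 1289 of all 24006 windows. Of the 299 windows with 90% or more, 278 were among the poorest. Across all windows, the median 500-ng value fell by bins of repeated share from 1.93 times the chromosome median at up to 5% to 0.00549 above 90%. Median uTOP-seq values over the same bins went from 1.43 to 0.00182. Soft-masked sequence, which the reference marks as interspersed or simple repeats, made up a median of 52.4% against 31.4%, and GC content 40.7% against 41.5%. The part of repeated sequence in the low 5hmC reads was not tested.

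**Figure D1:**
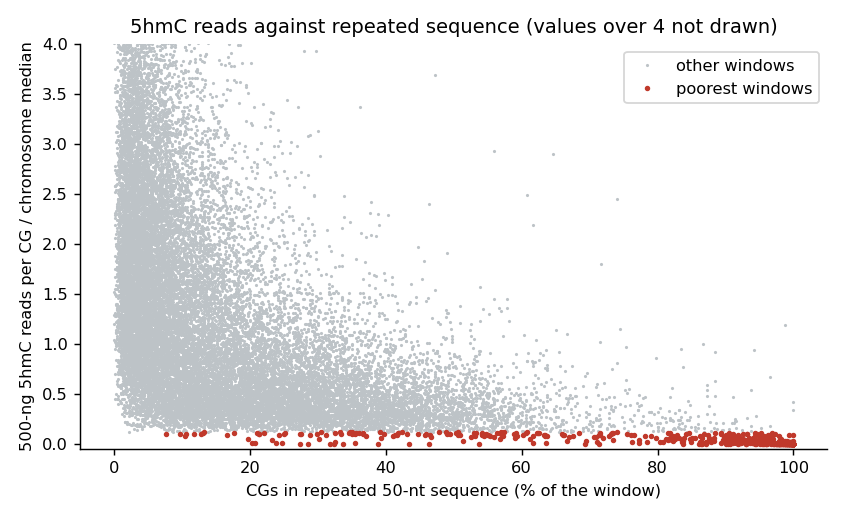
Each point is a 100-kb window, with the share of its CGs in repeated sequence on the x axis (%) and its 500-ng 5hmC reads per CG relative to the chromosome median on the y axis. The poorest windows lie at or below 0.117 and crowd at the right, where 278 of the 299 windows with a share of 90% or more belong to them.

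Pooled over all 480, the poorest windows were nearly empty in every library, though single windows reached 0.659 times the chromosome median in uTOP-seq. At 500 ng they held 10979 and 10810 reads, or 0.0352 and 0.0347 reads per CG, against 1.60 and 1.57 in all other windows, and 115 of the 480 had no read in either library. At 50 ng they held 8764 and 8437 reads, and at 5 ng 5710 and 5724. The uTOP-seq libraries held 25101, 20682 and 17495 reads there. As a percentage of the reads per CG of other windows, these values were 2.20 ± 0.00427 at 500 ng (SD, n = 2), 2.49 ± 0.00921 at 50 ng (SD, n = 2), 2.47 ± 0.0412 at 5 ng (SD, n = 2) and 5.78 ± 0.0892 in uTOP-seq (SD, n = 3). The controls held 45 reads there in all 6 libraries and 34336 in the other windows, which is 8.44% of the reads per CG of other windows, with 0% to 30.6% in single libraries (10.1% ± 11.9, SD, n = 6).

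**Figure D2:**
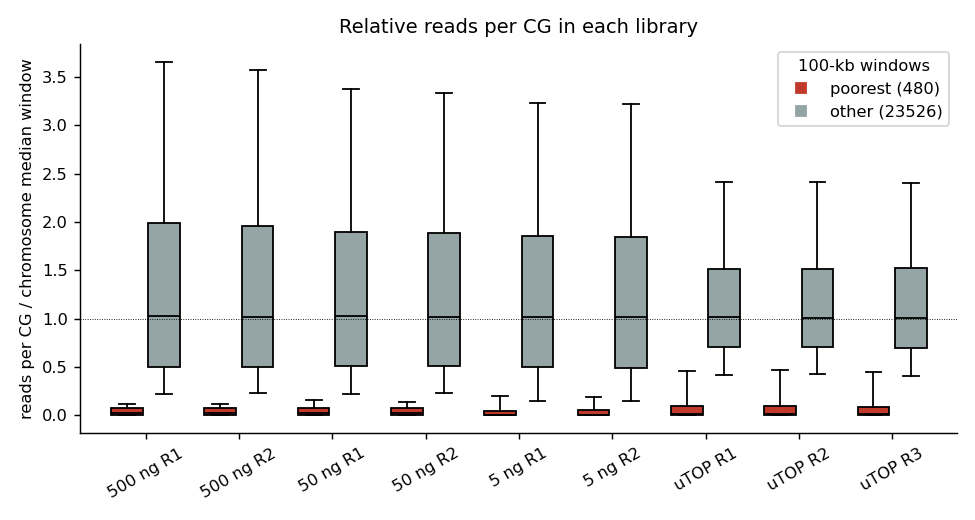
Boxes give the reads per CG of windows relative to the chromosome median in each of the 9 labelled hmTOP-seq and uTOP-seq libraries, with the median, the quartiles and whiskers from the 5th to the 95th percentile, for the 480 poorest and the 23526 other windows. The poorest windows have medians of at most 0.025 in all 9 libraries.

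The windows were also low in libraries that had no part in choosing them. uTOP-seq read counts were below the chromosome median in 480 of 480 windows by edgeR's quasi-likelihood test with Benjamini-Hochberg adjustment (adjusted p at most 9.34e-07), where 44.3% of all windows were called low. The median log2 difference was -4.79 over the 364 windows with a uTOP-seq read, and the smallest decrease was -0.60. When the test asked for more than a 2-fold decrease, 446 of 480 were called, against 6.77% of all windows. At 50 ng, again by edgeR, 480 of 480 were called low (43.5% of all windows) and 480 beyond 2-fold (16.0%), with an adjusted p of at most 6.71e-06. At 5 ng, 192 of 480 were called low (15.3%). The 288 not called included all 175 windows with no 5-ng read, so this count leaves out the windows with the lowest values. The highest 5-ng value among the 480 was 0.318 times the chromosome median. The 50-ng and 5-ng libraries are of the same assay and cell line as the 500-ng libraries.

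No difference between DNA inputs was called among the poorest windows. Of these, 95 had at least 10 reads in each 50-ng and 5-ng library, and 0 were called between 5 and 50 ng by edgeR, as were 0% of the 23190 windows tested. At an unadjusted p under 0.05, 6 of the 95 passed, and DESeq2 called 0 of them. The median log2 difference of these 95, 5 ng over 50 ng, was 0.32, against 0.01 over all windows tested. This median covers only windows that passed the read minimum, so it cannot show a shift with input for all the poorest windows. Pooled over all the poorest windows, without this minimum, reads per CG were 2.49% of other windows at 50 ng and 2.47% at 5 ng. The part of the read minimum in the median was not tested. Without 5-ng replicate 1 or 2, 21 of 139 and 16 of 129 were called, alongside 23.8% and 21.9% of all windows tested. These fits leave 1 library at 5 ng, which is then assumed to vary like the 50-ng pair.

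CGs without a single read made up most of these windows. In all 15 libraries together, 284554 of 311563 CGs (91.3%, 95% exact binomial interval 91.2 to 91.4) had no read, against 25.9% in the other windows. The interval covers counting error only and takes CGs as independent. The 15 libraries include the 2 500-ng libraries that chose the windows. In the 3 uTOP-seq libraries, which had no part in the choice, 93.7% had no read, against 38.2% elsewhere. Over all 15 libraries, the share among repeated CGs was 96.5%, against 68.2% of the repeated CGs elsewhere. Among the 52548 unique CGs it was 65.8% (65.4 to 66.2), against 19.3% elsewhere. In 78 of the 480 windows no library had a read, and no other window was so. Unique CGs held 0.108 ± 0.000632 500-ng reads per CG (SD, n = 2), or 6.15% of the unique CGs elsewhere, and 0.333 ± 0.0588 uTOP-seq reads (SD, n = 3), or 25.3%. The remaining 500-ng reads lay on 9041 CGs, 2.90% of the total, against 45.3% in other windows.

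The windows were unevenly spread over chromosomes and lay side by side. Chromosome 7 held 121, chromosome 14 held 75, chromosome 4 held 71, and chromosomes 5 and 12 held 48 each, together 75.6%. Chromosomes 9, 15 and 18 held 1 each. Adjacent windows formed 176 runs, of which 109 were single windows, and 21 runs of 5 or more held 249 windows.

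The longest run, chr7:20100001-23300000, had 32 windows with 49 Vmn1r genes, which encode vomeronasal pheromone receptors. Its 23367 CGs held 451 and 431 reads at 500 ng and 50, 51 and 39 in uTOP-seq, with 98.1% of CGs repeated. On chromosome 14, the run chr14:3000001-5900000 had 29 windows with 58 predicted genes (Gm symbols), and held 303 and 309 reads at 500 ng. A second run on chromosome 7, chr7:7400001-10100000, had 27 windows and 20 Vmn2r genes, the other large class of vomeronasal receptors. It held 32 and 43 reads at 500 ng but 194, 182 and 139 in uTOP-seq. On chromosome 5, chr5:93400001-95800000 had 24 windows and 21 Gm genes, and chr12:21700001-23700000 had 20 windows. In these 5 runs at least 97% of CGs had no read in any library.

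Among the windows at 0 for 500 ng, the 10 named first in genome order all lay on chromosome 2. Of these, 9 between chr2:175200001 and chr2:176300000 had no unique CG and no read in hmTOP-seq at 500 ng or in uTOP-seq, and held zinc finger genes such as Zfp965, Zfp966, Zfp968 and Zfp969. The tenth, chr2:100600001-100700000, had 14, 7 and 1 uTOP-seq reads. At the other end, the last windows inside the limit had 0.1168, 0.1169 and 0.1172 times the chromosome median, and the first outside had 0.1174, 0.1176 and 0.1176. One of the latter lay in Sgcz and another held olfactory receptor genes.

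Protein-coding genes were present at 520 midpoints, 2.50% of the 20801 genes in the windows analysed. Predicted Gm or Riken symbols made up 298 of the 520 and the other listed families 169. Vomeronasal receptors had 74 of 329 genes there (22.5%), in 49 of 208 Vmn1r and 25 of 121 Vmn2r genes. Major urinary proteins, which bind pheromones, had 11 of 22 Mup genes, and secretoglobins, small secreted proteins, had 16 of 34 Scgb genes. Of the defensin genes, which encode antimicrobial peptides, 17 of 64 were there, and all 17 had Defa symbols. The Skint family, named for a gene that acts in the selection of skin T cells, had 6 of 11 genes, and killer cell lectin-like receptors (Klr) 6 of 26. Olfactory receptors had 16 of 1128 (1.42%), and zinc finger genes named Zfp 11 of 388 (2.84%). Of the 41 families listed, 26 had no gene there, among them Hox, protocadherin and ribosomal protein genes. Genes of 1 family are copies of each other, so these counts are not independent.

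**Figure D3:**
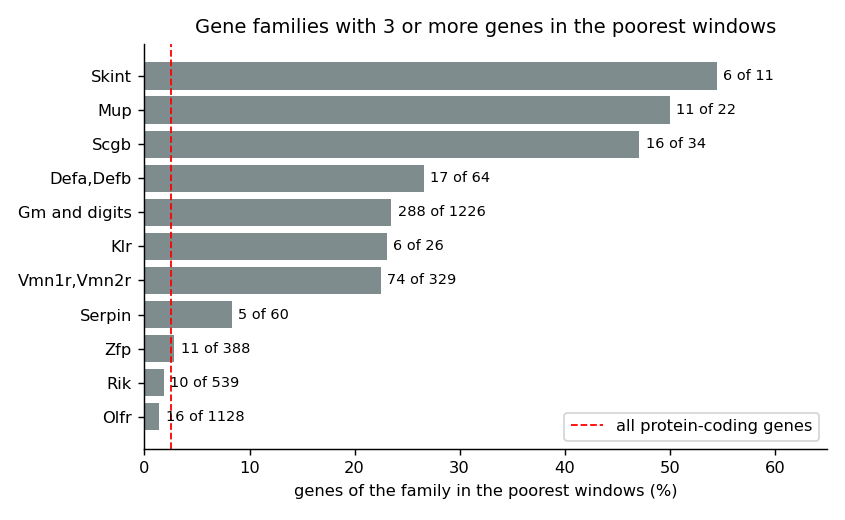
Bars give the percentage of the genes of each family whose midpoint lies in a poorest window, with the counts beside them, and the dashed line marks 2.50% for all protein-coding genes. The bars of Skint (6 of 11), Mup (11 of 22) and Scgb (16 of 34) are the longest, and Olfr and Rik lie under the line.

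Gene by gene, most had no 5hmC read. Of 325 genes with at least 80% of their length in these windows and at least 20 CGs, 223 had no 500-ng read and 201 no read in any library. These genes lie in windows chosen on the same 500-ng reads. Over all 19559 autosomal genes with at least 20 CGs, 360 had no 500-ng read and the median was 1.65 reads per CG. Gm16867 (1647 CGs), Gm2163 (1252 CGs), Vmn2r35 and Mup2 had no read in any library. Obox3, a homeobox gene, held 44 and 25 reads at 500 ng, and Serpina1b, a protease inhibitor, 35 and 34. Among the 325 genes, the highest value of 500-ng reads per CG was 0.643 in Gm13083, with 9 and 18 reads. All of these came from 1 unique CG at chr4:143618272-143618323, shown with its CG in capitals as a CG that was read in these windows.
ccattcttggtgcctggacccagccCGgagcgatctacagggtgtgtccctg

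That CG had 12 and 1 reads at 50 ng and 5, 5 and 4 in uTOP-seq. Among the 325 genes, olfactory receptor genes had the 4 highest values of uTOP-seq reads per CG. Olfr1006 had 24, 10 and 23 uTOP-seq reads, or 0.950 per CG, with 1 and 5 reads at 500 ng. Olfr32 had 0.767 and Olfr1305 0.759 uTOP-seq reads per CG. Klrk1, an activating receptor of natural killer cells, had 61, 21 and 28 uTOP-seq reads and 3 and 5 at 500 ng. In these genes from 0% to 21.1% of CGs were repeated.

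The Skint genes on chromosome 4 lay in a stretch with less repeated sequence than the longest runs. This stretch was picked out after its values were seen. Of the 22 windows of chr4:112100001-114300000, 19 were among the poorest, and 17 of these had under 50% of CGs in repeated sequence. In the 19 windows, 5807 of 6142 unique CGs (94.5%, exact binomial interval 93.9 to 95.1) had no read in any library. This interval too covers counting error only. Unread unique CGs were also common elsewhere among the poorest windows. Of the 170 with at least 100 unique CGs, 52 had over 80% of these unread, 18 of them in the Skint stretch. Over all windows with at least 100 unique CGs, 60 of 23644 were so. Pooled over the 345 repeated windows with a unique CG, 69.7% of 29540 unique CGs had no read in any library. Taken window by window, the median unread share of these 345 was 87.0%. Unique CGs of the Skint windows held 0.78% ± 0.0427 of the 500-ng reads per CG of other windows (SD, n = 2) and 3.85% ± 0.279 of the uTOP-seq reads (SD, n = 3). Skint6 held 3 and 8 reads at 500 ng over 5 windows, and Skint5 held 46 and 35. The following unique CGs lie in exons of Skint3, Skint9 and Skint6 and had 0 reads in all 15 libraries, with the CG in capitals.
chr4:112232384-112232435: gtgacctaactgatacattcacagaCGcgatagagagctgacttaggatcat
chr4:112386382-112386433: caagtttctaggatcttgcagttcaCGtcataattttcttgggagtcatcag
chr4:112804651-112804702: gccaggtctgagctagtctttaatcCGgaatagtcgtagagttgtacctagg

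In the 4 adjacent windows from Skint3 to Skint2, 2 of 1416 unique CGs had a read, and these windows together held 3 reads in all 15 libraries. Inside the stretch, the window chr4:112600001-112700000 was not among the poorest. It held 152 and 112 reads at 500 ng and 129, 124 and 92 in uTOP-seq. The uTOP-seq value was 0.00812 times the chromosome median at chr4:112800001-112900000 in Skint6 and 0.207 at chr4:114000001-114100000, the highest of the 19 windows. E14TG2a derives from a 129 strain and the reference from C57BL/6J. Absence of this sequence from the cells, reads that could not be placed, and absence of both 5hmC and unmodified CGs cannot be told apart with these counts.

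**Figure D4:**
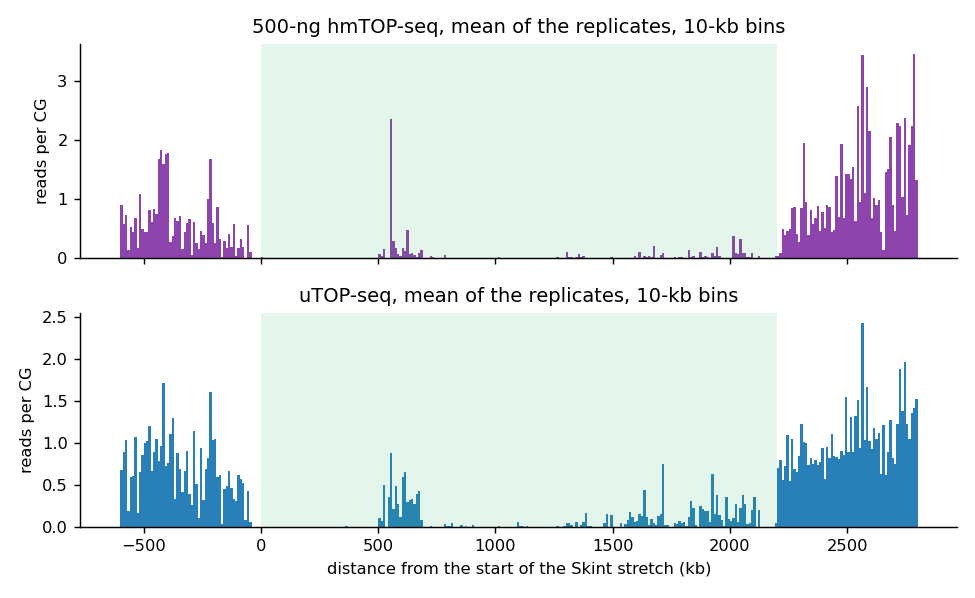
Bars give reads per CG in 10-kb bins along chromosome 4, as the mean of 2 500-ng hmTOP-seq libraries (top) and 3 uTOP-seq libraries (bottom), against the distance in kb from the start of the shaded Skint stretch. Both assays are near 0 over most of the shaded 22 windows, except for the windows around Skint2 and Skint10 and chr4:114100001-114200000 in Skint11. The bins just left of the shading are also at 0, and both assays return at the right edge.

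The other 54 windows with under 50% of CGs repeated kept more uCG reads. Their median uTOP-seq value was 0.452 times the chromosome median, against 0.00782 in the 409 repeated windows, while their median 500-ng value was 0.0986. They had a median GC content of 36.9%, and 39 of the 54 held no protein-coding gene, or 72.2% against 35.1% of all other windows outside the poorest. Of their unique CGs, 49.8% had no read in any library, 84.9% no hmTOP-seq read and 55.0% no uTOP-seq read. In other windows these shares were 19.3%, 44.5% and 31.5%. Unique CGs of the 54 windows held 7.03% ± 0.00513 of the 500-ng reads per CG of other windows (SD, n = 2) and 40.5% ± 0.347 of the uTOP-seq reads (SD, n = 3).

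**Figure D5:**
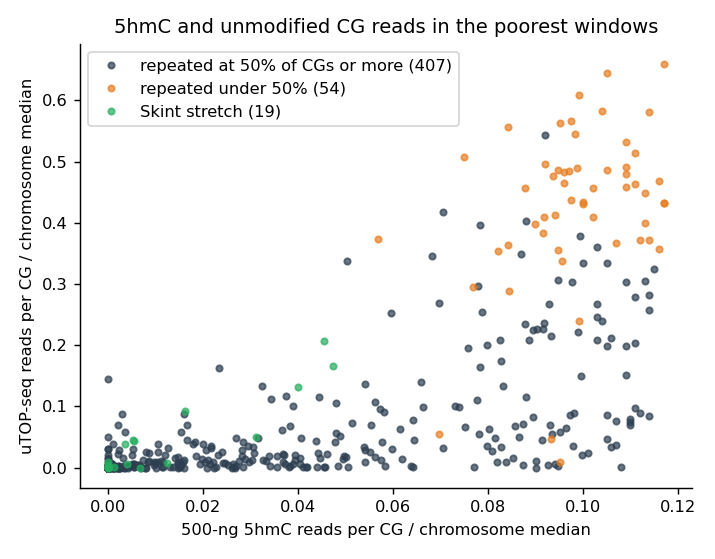
Each point is 1 of the 480 poorest windows, with 500-ng 5hmC reads per CG on the x axis and uTOP-seq reads per CG on the y axis, both relative to the chromosome median. Repeated windows lie mostly near 0 on both axes, Skint windows reach 0.207 on the y axis, and the 54 others reach 0.659.

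The highest uTOP-seq values were 0.659 at chr3:114500001-114600000, 0.645 at chr3:114700001-114800000 and 0.609 at chr11:91800001-91900000, none of which overlapped a protein-coding gene. The last of these held 56 and 58 reads at 500 ng against 343, 271 and 225 in uTOP-seq, with 9.70% of CGs repeated. These 3, chr14:109500001-109600000 and chr5:40500001-40600000 were the highest of the 34 windows not called beyond 2-fold in uTOP-seq. Within genes, the window chr2:96900001-97000000 in Lrrc4c, a synaptic adhesion protein, held 39 and 44 reads at 500 ng and 211, 163 and 141 in uTOP-seq. Another, chr4:78000001-78100000 in Ptprd, a receptor phosphatase of neurons, held 30 and 39 reads and 218, 174 and 160. These 2 gene windows were chosen after their values were seen. By contrast, chr7:47600001-47700000 held 50 and 45 reads at 500 ng and only 5, 4 and 3 in uTOP-seq. This window overlapped Mrgpra3, a sensory receptor gene, but held the midpoint of no protein-coding gene. It too was chosen after its values were seen.

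The CGs of the poorest windows lay mostly outside protein-coding genes. Intergenic here means outside protein-coding genes, so it includes CGs in other annotated genes. Intergenic CGs were 83.5% of the total, against 50.9% elsewhere. Exon CGs held 0.0263 ± 0.00235 500-ng reads per CG, intron CGs 0.0258 ± 0.00013 and intergenic CGs 0.0368 ± 0.000508 (SD, n = 2 each). In other windows the order was exon (2.62), intron (1.74) and intergenic (1.27). The 500-ng reads chose the poorest windows, so these values are a description, with no test. At 50 ng the poorest windows held 0.0170 reads per exon CG, 0.0202 per intron CG and 0.0292 per intergenic CG. In other windows these were 1.72, 1.22 and 0.906. In CG-dense bins, 500-bp bins with at least 25 CGs, uTOP-seq gave 0.0243 ± 0.00549 reads per CG (SD, n = 3) in the poorest windows and 2.20 ± 0.403 elsewhere (SD, n = 3). Of the 484 CG-dense bins of the poorest windows, 466 lay in windows with at least 50% of CGs repeated, against 1553 of 34312 elsewhere. The part of repeated sequence in the values of exon, intron, intergenic and CG-dense CGs was not tested.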

How the data were processed

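hmTOP-seq and uTOP-seq libraries of E14TG2a cells were analysed in 15 columns. The authors trimmed reads, mapped them to mm10 with a minimum mapping quality and removed duplicates without molecular identifiers. The deposited values are raw read counts per CG, both strands merged for hmTOP-seq and separate for uTOP-seq, which were summed here. Counts were summed in 100-kb windows. Each group was tested against the chromosome median with the quasi-likelihood F statistic of edgeR 4.0.16 (R 4.3.3), computed from its fit with an offset of log(CGs × median reads per CG) and Benjamini-Hochberg adjustment at 0.05. Input was compared with edgeR's quasi-likelihood test with TMM. DESeq2 1.42.0 was an alternative. Scripts were tested on simulated data. Genes were from GENCODE vM21, and repeated sequence was counted on 65 contigs of GRCm38. A listed family was a symbol prefix. The windows, families and tests were chosen with earlier results of these data known. Named were the windows lowest at 500 ng, nearest the limit, in the 5 longest runs and at the extremes of uTOP-seq. Named genes had at least 80% of their length there and at least 20 CGs, and were those with most CGs, those at the extremes of reads per CG, and 2 for each family with 3 or more genes.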

Additional observations from a re-analysis of the deposited data

How the results depend on the processing

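With unique CGs alone, 113 of the 480 windows were chosen again, since 355 held under 200 unique CGs, and with the bottom 1% 240 remained. Without 1 of the 500-ng replicates, 453 to 455 of the 480 windows were chosen again. For the share of CGs with no read (91.3%), the value was 96.1% over the 6 hmTOP-seq libraries, 93.7% over the 3 uTOP-seq libraries, 94.1% with at least 2 reads required, 88.9% outside soft-masked sequence, and 65.8% and 62.0% for CGs unique over 50 and 30 nt. In the following counts, percentages in brackets give the share of all windows tested that were called low. Fewer windows could be tested with at least 10 reads in every library. Those called low were 195 of 195 in uTOP-seq (44.4%), 207 of 207 at 50 ng (43.5%) and 102 of 102 at 5 ng (22.5%). With unique CGs alone they were 125 of 125 in uTOP-seq (43.2%) and at 50 ng (42.2%). At 5 ng they were 8 of 125, or 6.4%, close to the 4.47% of all windows. An alternative chosen after seeing the data kept windows with under 50% of CGs repeated. Called low there were 71 of 71 in uTOP-seq (41.2%), 71 of 71 at 50 ng (40.5%) and 41 of 71 at 5 ng (12.9%). At 5 ng, 4 of 480 were called beyond 2-fold (0.0583%). Outside soft-masked sequence, 6 of 385 were called low at 5 ng, or 1.56%, below the 2.14% of all windows. The cause was not tested. DESeq2 called 364 of 364 in uTOP-seq (43.2%), 353 of 353 at 50 ng (41.1%) and 270 of 305 at 5 ng (22.3%). Leaving out 1 replicate gave 480 low windows in uTOP-seq each time, and from 0 to 21 calls between 5 and 50 ng, where a lone 5-ng or 50-ng library is assumed to vary like the other pair. Same-numbered 5-ng and 50-ng libraries did not deviate together (r = 0.00275 across windows, which are not independent), and a replicate block called 0 of the poorest windows. Genes in the windows numbered 296 with the bottom 1% and 813 with the bottom 5%, against 520.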

Other observations

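The same rule was applied to unique CGs alone. Of 23482 windows ranked, 470 were chosen, 113 of them among the poorest windows described above, with a median GC content of 37.0%, a median uTOP-seq value of 0.483 times the chromosome median and no protein-coding gene in 340 (72.3%). Ptprd overlapped 9 of them, Skint5 6, Skint6 5, Lrrc4c 4, and Cntnap2, Galntl6 and Kcnip4 3 each. Longer genes span more windows, and these counts were not set against gene length. Of the genes named, Ptprd, Lrrc4c and Cntnap2 encode adhesion proteins of neurons, and no share of such genes was tested.

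Chromosome X, which was left out of the rule, had 1649 windows with at least 200 CGs. Relative to its own median, 157 of them (9.52%) lay at or under the autosomal limit of 0.117. All 157 had at least 50% of CGs in repeated sequence, and their median uTOP-seq value was 0.00494. Their median share of repeated CGs was 99.1%, against 27.3% in the other chromosome X windows.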
